A study of Mus musculus with 21 samples.

Results

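The Rab genes of RAW 264.7 cells, a mouse macrophage-like tumour line, were followed through exposure to amorphous silica particles. Members were all genes on the array whose symbol starts with Rab followed by a digit and whose probe set carries 1 gene symbol. There were 56 of 12393 genes measured, of which 50 encode Rab GTPases. The label of Rab GTPases is therefore not exact: 5 members are effectors or regulators named after a Rab (Rab11fip5, Rab3gap2, Rab3il1, Rab3ip and Rab5if), and Rab26os is a transcript of the strand opposite Rab26. A gene with several probe sets, as 28 members had, was represented by the one with the highest mean over the 21 arrays.

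Cells received 10 nm silica at 5, 20 or 50 µg/ml or 500 nm silica at 250, 500 or 1000 µg/ml for 2 h in serum-free medium, and untreated cells were the control. Each of the 7 groups had 3 arrays. Separate cultures are not stated for the 3 arrays of a group, so each p-value rests on a spread that may be technical only. Whether the untreated cells also lost serum is not stated either, so loss of serum and particles cannot be told apart in a comparison with them. The ratio of dose to diameter, which sets the nominal surface area, is the same for 10 nm at 5 and 500 nm at 250 µg/ml, and again for 10 nm at 20 and 500 nm at 1000 µg/ml. The high doses, 50 and 1000 µg/ml, are matched neither by mass nor by area.

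Rab proteins are small GTPases that switch between a GDP-bound form in the cytosol and a GTP-bound form on a membrane, where they recruit the effectors that bud, move, tether and fuse vesicles. Exchange factors load them with GTP, GTPase activating proteins turn them off, and a lipid anchor added by geranylgeranyl transferase holds them on the membrane. Each compartment carries its own set. In a macrophage that has taken up a particle, the phagosome exchanges Rab5 for Rab7 as it matures and fuses with lysosomes, and other Rabs recycle receptors, carry cytokines to the surface or serve lysosome-related organelles.

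Arrays of one group correlated at 0.983 to 0.998 over all genes and arrays of different groups at 0.969 to 0.998. Replicate 3 had the smallest SD over genes in each of the 7 groups (2.41 to 2.64 on the log2 scale over the 21 arrays). Some members ranked alike in it: Rab20 was lowest and Rab14 and Rab34 were highest in replicate 3 of all 7 groups. Counts and named changes were therefore also computed without replicate 3. Of 9 macrophage markers measured, Csf1r had log2 intensities of 12.89 to 13.79 and Cd68 of 11.75 to 12.50 over the 21 arrays. Adgre1 was at 8.95 to 9.35, and Itgam, the lowest, was at 5.14 to 6.67, within the range of the other cell types' markers. Mpeg1 was the one macrophage marker that passed the test at a high dose, where it was lower with both sizes. Markers of T cells, B cells, neutrophils, fibroblasts and epithelium ranged from 2.51 to 7.0, and the 2 of those 22 that passed at a high dose were Cldn4 with 10 nm and Pdgfra with 500 nm silica, both higher. The part of such shifts in the results for Rab genes was not tested. In whole-culture RNA, fewer cells and less RNA per cell cannot be told apart.

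Promoter sequence was shown for the member with the largest rise (Rab20) and the member with the largest fall (Rab11fip5), and for Rab32, whose fall with 10 nm silica kept its call in all alternatives at the highest dose. Each sequence is the 250 bases before the transcript start that RefSeq's promoter table uses, 5′ to 3′ on the gene's strand, on GRCm38.p6. For Rab11fip5 that start lies inside the annotated gene, which ends at 85374684, so the last 50 bases shown are within the gene. These are chr8:11478641-11478890 for Rab20, chr10:10558208-10558457 for Rab32 and chr6:85374635-85374884 for Rab11fip5, all on the minus strand. Capitals mark matches on either strand to a GC box (GGGCGG, the Sp1 site), an E-box (CACGTG) or a PU.1 site (GAGGAAGT).
Rab20: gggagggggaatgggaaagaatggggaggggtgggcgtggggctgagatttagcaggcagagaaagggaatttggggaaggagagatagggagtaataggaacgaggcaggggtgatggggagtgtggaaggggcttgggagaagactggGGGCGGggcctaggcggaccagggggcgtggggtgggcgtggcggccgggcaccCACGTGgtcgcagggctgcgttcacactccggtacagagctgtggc
Rab32: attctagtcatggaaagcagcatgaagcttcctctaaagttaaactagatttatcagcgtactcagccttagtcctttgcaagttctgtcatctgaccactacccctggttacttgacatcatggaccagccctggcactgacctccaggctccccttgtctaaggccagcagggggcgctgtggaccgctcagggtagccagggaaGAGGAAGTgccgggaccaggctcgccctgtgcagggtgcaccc
Rab11fip5: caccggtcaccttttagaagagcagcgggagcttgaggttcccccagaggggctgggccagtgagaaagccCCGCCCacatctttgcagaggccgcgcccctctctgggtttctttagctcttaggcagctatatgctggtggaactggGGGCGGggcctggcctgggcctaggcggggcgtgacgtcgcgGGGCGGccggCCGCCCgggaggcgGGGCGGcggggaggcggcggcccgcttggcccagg

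Rab20 held 1 GC box and 1 E-box, Rab32 held 1 PU.1 match, and Rab11fip5 held 5 GC boxes, some of them close together. GC boxes were present in 37 of the 48 members that have a promoter entry, against 32.7% of 32851 RefSeq promoters of the same length. The E-box was in 7 of the 48, against 6.02% of all promoters, and the PU.1 match in 3, against 2.44%. Matches to AP-1 (TGANTCA), CRE (TGACGTCA) and the NF-kB site were in 2, 2 and 5 of the 48 members, against 6.75%, 1.55% and 4.65% of all promoters, and none lay in the 3 windows shown. A match is a description of letters, not of a bound site.

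Of the 56 members, 17 passed the test against untreated cells at 1 or more of the 6 doses, against 26.9% of all genes. The Rab7 relative Rab7b was called higher at every dose but the highest of 10 nm silica, where its other probe set passed (0.98). The phagosomal Rab20 rose with the middle dose of 10 nm silica and with 500 and 1000 µg/ml of 500 nm silica. With the replicate number as a block, Rab20 was also called at 50 µg/ml of 10 nm silica. The Rab11 effector Rab11fip5 fell at the 10 nm doses of 20 and 50 µg/ml and at 1000 µg/ml of 500 nm silica. Differences are given as log2 values of the treated minus the untreated mean, with limma's standard error and an adjusted p (Benjamini-Hochberg over 12393 genes, 3 arrays a group), and a gene was called at an adjusted p under 0.05.

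With 10 nm silica at 5 µg/ml, 1 of 56 members passed the test, against 0.767% of all genes. At 20 µg/ml, 9 passed, 3 of them higher and 6 lower (16.1% of members, against 10.6% of all genes, 3.22% higher and 7.39% lower). At 50 µg/ml 12 passed, 1 higher and 11 lower (21.4%, against 20.2% of all genes, 7.58% higher and 12.6% lower). With 500 nm silica the members that passed numbered 1 at 250 µg/ml (0.428% of all genes), 2 at 500 µg/ml (2.77%) and 7 at 1000 µg/ml, the last with 2 higher and 5 lower (12.5% of members, against 15.3% of all genes, 5.31% higher and 10.0% lower). At the high doses the members' share was thus near that of all genes, and the counts set nothing apart about the family. The moderated F test over the 7 groups called 8 members (16.2% of all genes): Rab11fip5, Rab20, Rab26os, Rab29, Rab32, Rab40c, Rab7b and Rab9.

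Median member differences were 0.04, 0.00 and -0.01 at the 3 doses of 10 nm silica and 0.02, 0.04 and 0.06 at the 3 doses of 500 nm silica, against 0.03, 0.03 and 0.04 and 0.00, 0.02 and 0.07 over all genes. Groups of 3 arrays did not overlap for 18 members at 10 nm and 50 µg/ml and for 16 at 500 nm and 1000 µg/ml, against 33.3% and 31.1% of all genes. The split between higher and lower calls depended on how the arrays were scaled. At 10 nm and 50 µg/ml it was 7 higher and 5 lower after centring each array on its median (15% and 8.88% of all genes), 10 and 4 after rescaling to one median and SD (14.2% and 7.0%), and 2 and 5 after quantile normalization (6.78% and 8.98%). For 500 nm at 1000 µg/ml centring gave 5 and 3 (9.72% and 7.22% of all genes), rescaling 10 and 3 (12.2% and 6.11%) and quantile normalization 2 and 4 (5.24% and 7.93%). For 10 nm at 20 µg/ml they gave 5 and 5 (4.75% and 5.16%), 5 and 4 (5.30% and 4.41%), and 4 and 4 (3.81% and 5.62%). Centring moved the median of all genes at 10 nm and 50 µg/ml to 0.14, against 0.04 without it. With the replicate number as a block, 14 members were called at 10 nm and 20 µg/ml (4 higher, 10 lower) and 20 at 10 nm and 50 µg/ml (5 higher, 15 lower), against 18% and 36.7% of all genes. A fit on the compared groups alone, with fewer arrays to estimate the spread, kept Rab7b at 10 nm and 5 µg/ml (0.226% of all genes called), Rab11fip5, Rab20 and Rab26os at 20 µg/ml (5.31%), and Rab26os and Rab32 at 50 µg/ml (5.58%). It also kept Rab7b and Rab20 at 500 nm and 500 µg/ml (1.0%), and Rab7b, Rab20, Rab11fip5 and Rab26os at 1000 µg/ml (6.14%). It ended every other call of a member against untreated cells, also where the paragraphs below do not repeat it.

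**Figure D1:**
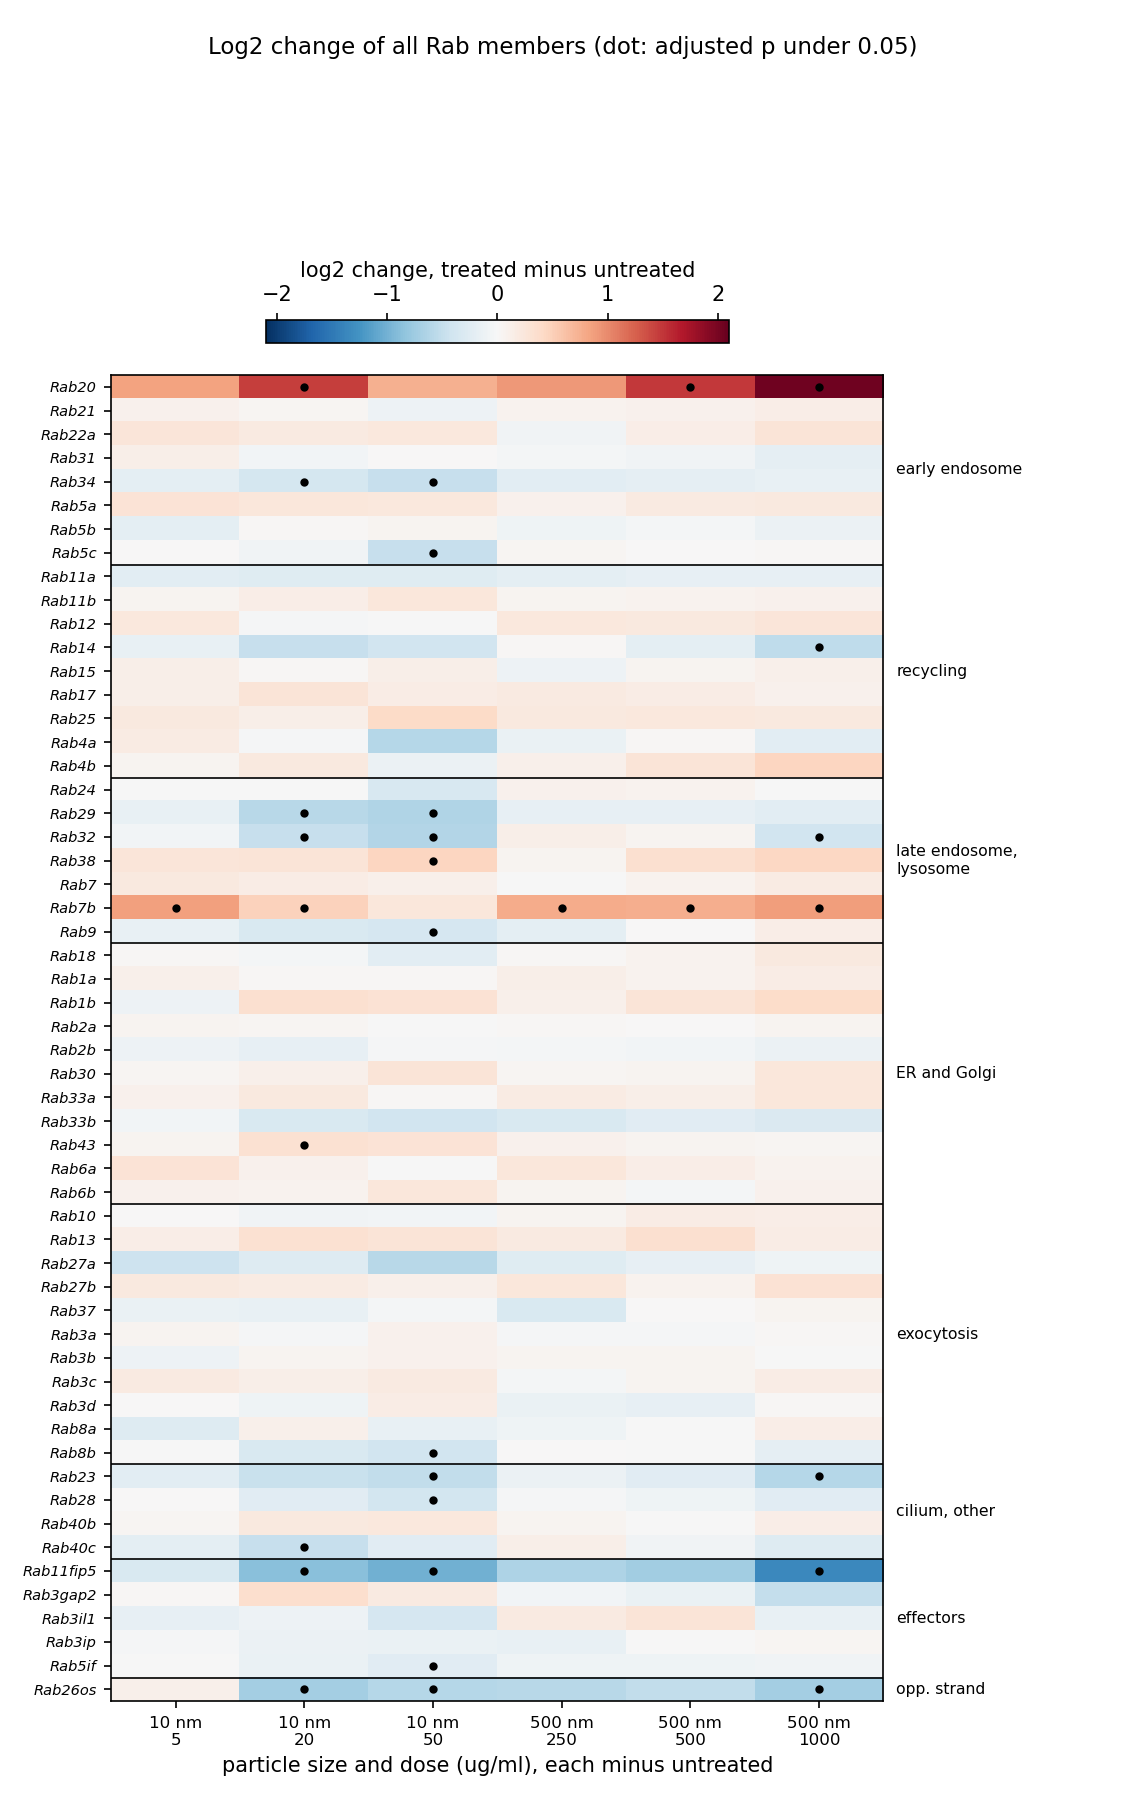
Log2 difference from untreated cells of the 56 members (rows, grouped by role) at the 6 doses (columns, 3 arrays a group), with blue lower and red higher; a dot marks an adjusted p under 0.05. Rab20 and Rab7b stand out as higher and Rab11fip5 as lower, while most rows stay pale.

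Of the 7 genes of the late endosome, lysosome and autophagy, Rab7b changed at the lowest doses. Rab7b works between late endosomes and the Golgi and is known in macrophages to promote lysosomal breakdown of Toll-like receptor 4. Its log2 intensity was 9.95, 9.88 and 10.00 in cells given 10 nm silica at 5 µg/ml, 9.39, 9.65 and 9.68 at 20 µg/ml and 9.34, 9.21 and 9.4 at 50 µg/ml, against 9.02, 9.05 and 9.17 in untreated cells. All 9 treated arrays lay above the 3 untreated ones, with the highest dose closest to them. The differences were 0.86 ± 0.12 (SE, adjusted p = 0.000485), 0.49 ± 0.12 (SE, adjusted p = 0.0126) and 0.24 ± 0.12 (SE, adjusted p = 0.176) from the low to the high dose, so the last was not called. With 500 nm silica the values were 9.96, 9.75 and 9.9 at 250 µg/ml, 10.01, 9.61 and 9.91 at 500 µg/ml and 9.98, 9.73 and 10.15 at 1000 µg/ml. Again no treated array overlapped the untreated ones, and the 3 doses overlapped each other.

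Rab7b was higher than in untreated cells by 0.79 ± 0.12 (SE, adjusted p = 0.00237), 0.76 ± 0.12 (SE, adjusted p = 0.0009) and 0.87 ± 0.12 (SE, adjusted p = 5.19e-05) at the 3 doses of 500 nm silica, the last 1.83-fold. Rab7b was the one member called at the lowest dose of either size, and at 500 nm and 250 µg/ml the fit on the compared groups alone ended that call (0.0577, with 0.105% of all genes called). Between doses of 10 nm silica, a comparison chosen after its values were seen, Rab7b was lower at 50 than at 5 µg/ml, with a difference of -0.63 ± 0.12 (SE, adjusted p = 0.00219), where 7 members were called (11.7% of all genes). That call ended with rescaled arrays (adjusted p = 0.0922) and with the mean of both probe sets (0.0856). The call at 20 µg/ml ended without 10 nm, 20 µg/ml replicate 2 (0.0545) or 10 nm, 20 µg/ml replicate 3 (0.0624), and in the fit on the compared groups alone (0.0654).

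The other Rab7b probe set gave another dose pattern. It was higher at every dose, by 0.86, 1.14 and 0.98 with 10 nm silica and by 1.03, 1.01 and 1.12 with 500 nm silica. At 10 nm and 50 µg/ml its values were 9.75, 9.54 and 9.58, against 8.42, 9.07 and 8.43 in untreated cells, an adjusted p of 0.000104 over 20380 probe sets. The probe sets thus share the rise and differ on whether it faded at the highest 10 nm dose.

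Rab32 and Rab29 of the same role group fell with 10 nm silica. Rab32, which serves lysosome-related organelles, read 7.29, 7.39 and 7.62 at 20 µg/ml and 7.41, 7.23 and 7.29 at 50 µg/ml of 10 nm silica, against 7.84, 7.87 and 8.04 in untreated cells. None of these treated arrays reached the untreated range. The differences were -0.48 ± 0.11 (SE, adjusted p = 0.00497) and -0.61 ± 0.11 (SE, adjusted p = 0.000462). At 1000 µg/ml of 500 nm silica Rab32 read 7.55, 7.54 and 7.46, also below all untreated arrays, a difference of -0.4 ± 0.11 (SE, adjusted p = 0.0153). The call at 1000 µg/ml ended without untreated replicate 3 (0.0664) or 500 nm, 1000 µg/ml replicate 3 (0.0568), with all replicate 3 arrays left out (0.0884), and under centring (0.0557), quantile normalization (0.134) and rescaling (0.0884). At 10 nm and 20 µg/ml quantile normalization gave 0.0603. The fit on the compared groups alone ended the calls at 20 µg/ml and at 1000 µg/ml.

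Rab29, a Rab of the Golgi and lysosome that recruits the kinase Lrrk2, read 7.38, 7.57 and 7.17 at 20 µg/ml and 7.53, 7.37 and 7.04 at 50 µg/ml of 10 nm silica, against 8.11, 8.0 and 7.75 in untreated cells. The treated arrays all lay below the untreated ones, and replicate 3 was the lowest of its group in each. The differences were -0.58 ± 0.13 (SE, adjusted p = 0.00603) and -0.64 ± 0.13 (SE, adjusted p = 0.00193), falls of 1.49-fold and 1.56-fold. Both calls ended in the fit on the compared groups alone. With 500 nm silica at 1000 µg/ml the difference was -0.23 ± 0.13 (SE, adjusted p = 0.269).

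Rab38, the near relative of Rab32, had values of 4.15, 4.54 and 4.53 at 10 nm and 50 µg/ml, against 4.05, 3.76 and 4.06 in untreated cells, near the low end of the array's range. It was the single member called higher there, by 0.45 ± 0.15 (SE, adjusted p = 0.0353). That call ended without untreated replicate 2 (0.151), 10 nm, 50 µg/ml replicate 2 (0.115) or 10 nm, 50 µg/ml replicate 3 (0.127), without all replicate 3 arrays (0.0671) and under quantile normalization (0.202). Rab9, which returns mannose 6-phosphate receptors from late endosomes to the Golgi, read 8.41, 8.26 and 8.45 at 10 nm and 50 µg/ml, against 8.61, 8.64 and 8.94 in untreated cells. The groups did not overlap, and the difference was -0.35 ± 0.1 (SE, adjusted p = 0.0199). This call ended without untreated replicate 3 (0.082) or 10 nm, 50 µg/ml replicate 2 (0.0854), without all replicate 3 arrays (0.0672), and under centring (0.0812), quantile normalization (0.213) and rescaling (0.281).

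Rab7 itself, the main Rab of late endosomes and mature phagosomes, and Rab24, linked to autophagy, passed no test. Rab7 differed from untreated cells by 0.11 ± 0.1 (SE, adjusted p = 0.447) at 10 nm and 50 µg/ml and by 0.17 ± 0.1 (SE, adjusted p = 0.288) at 500 nm and 1000 µg/ml, with 95% intervals of -0.11 to 0.33 and -0.05 to 0.39. Rab24 had differences of -0.34 and -0.01 at the same doses.

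**Figure D2:**
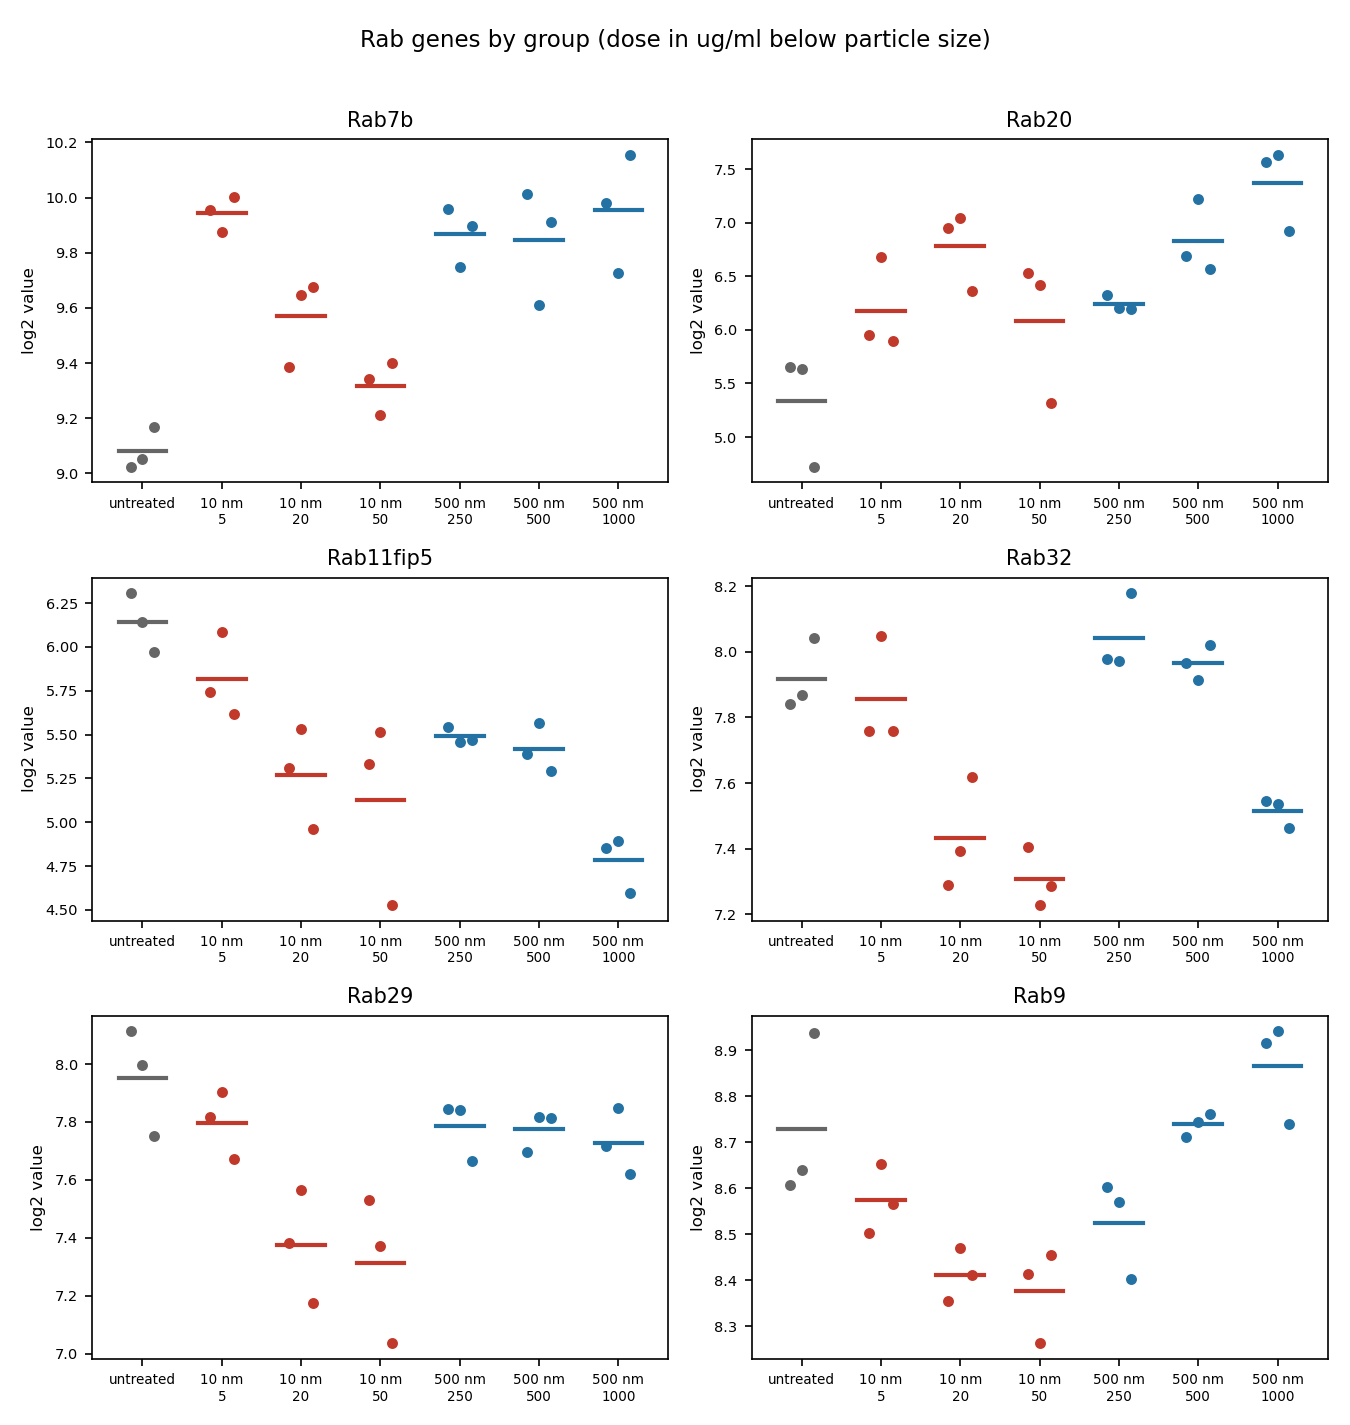
Log2 intensity of each array (points, replicates 1 to 3 from left to right) and group mean (lines) of 6 members in the 7 groups of 3 arrays, with untreated cells at the low end of the doses; each panel has its own scale, which does not start at 0. Treated Rab7b arrays all lie above 9.17, the highest untreated value, and the group mean of Rab11fip5 is lowest at 500 nm and 1000 µg/ml.

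Among the 8 genes of the early endosome and of uptake, Rab20 showed the largest rise of any member. Rab20 is known in macrophages for its place on phagosomes and for induction by low oxygen. With 10 nm silica it read 5.95, 6.68 and 5.89 at 5 µg/ml, 6.95, 7.04 and 6.36 at 20 µg/ml and 6.53, 6.42 and 5.31 at 50 µg/ml, against 5.65, 5.64 and 4.72 in untreated cells. The arrays at 20 µg/ml all lay above the untreated ones, while at 50 µg/ml replicate 3 fell within the untreated range. The differences were 0.84 ± 0.32 (SE, adjusted p = 0.465), 1.45 ± 0.32 (SE, adjusted p = 0.00429) and 0.75 ± 0.32 (SE, adjusted p = 0.1), so the middle dose alone was called. Between same-numbered arrays Rab20 was higher at 50 µg/ml by 0.88, 0.78 and 0.59, and with the replicate number as a block that dose was called too (adjusted p = 0.00463).

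With 500 nm silica Rab20 read 6.33, 6.2 and 6.2 at 250 µg/ml, 6.69, 7.23 and 6.57 at 500 µg/ml and 7.57, 7.63 and 6.92 at 1000 µg/ml. Every one of these arrays lay above the untreated ones, and the arrays at 1000 µg/ml lay above those at 250 µg/ml. The differences from untreated cells were 0.91 ± 0.32 (SE, adjusted p = 0.537), 1.49 ± 0.32 (SE, adjusted p = 0.0108) and 2.04 ± 0.32 (SE, adjusted p = 0.000145), the last 4.11-fold. Between 1000 and 250 µg/ml, a comparison chosen after its values were seen, the difference was 1.13 ± 0.32 (SE, adjusted p = 0.0311), where 6 members were called (8.20% of all genes). That call between doses ended without 500 nm, 250 µg/ml replicate 1 (0.0761), 500 nm, 250 µg/ml replicate 2 (0.0869), 500 nm, 250 µg/ml replicate 3 (0.0959), 500 nm, 1000 µg/ml replicate 1 (0.111) or 500 nm, 1000 µg/ml replicate 2 (0.109), and the call at 500 µg/ml ended without untreated replicate 3 (0.079) or 500 nm, 500 µg/ml replicate 2 (0.069). Replicate 3 was the lowest array in all 7 groups.

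Rab34, which acts in macropinocytosis and in the placing of lysosomes, read 8.03, 8.07 and 8.21 at 20 µg/ml and 7.94, 7.93 and 8.11 at 50 µg/ml of 10 nm silica, against 8.33, 8.31 and 8.8 in untreated cells. The treated arrays lay below the untreated ones, of which replicate 3 stood well above the other two. The differences were -0.37 ± 0.11 (SE, adjusted p = 0.0389) and -0.49 ± 0.11 (SE, adjusted p = 0.00476). At 20 µg/ml the difference was -0.22 without that untreated array (adjusted p = 0.202), and the call also ended without 10 nm, 20 µg/ml replicate 1 (0.154) or 2 (0.102), without all replicate 3 arrays (0.106) and under centring (0.13). Quantile normalization and rescaling ended the calls at 20 µg/ml (0.223 and 0.247) and at 50 µg/ml (0.107 and 0.0939). With 500 nm silica at 1000 µg/ml Rab34 differed by -0.15 ± 0.11 (SE, adjusted p = 0.392).

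Rab5c, one of the Rab5 forms that mark early endosomes, read 7.32, 7.94 and 7.29 at 10 nm and 50 µg/ml, against 7.85, 8.16 and 7.99 in untreated cells. The groups overlapped, since replicate 2 of the treated cells stood within the untreated range, and the difference was -0.48 ± 0.16 (SE, adjusted p = 0.046). It was the one member called at that dose with overlapping arrays. Leaving out untreated replicate 1 (0.0508), untreated replicate 2 (0.162), untreated replicate 3 (0.0729), 10 nm, 50 µg/ml replicate 1 (0.127) or 10 nm, 50 µg/ml replicate 3 (0.195) ended the call, as did leaving out all replicate 3 arrays (0.252), centring (0.0974), quantile normalization (0.233), rescaling (0.147) and array weights (0.202). Rab5a and Rab5b, the other Rab5 forms, differed by 0.21 ± 0.1 (SE, adjusted p = 0.134) and 0.06 ± 0.17 (SE, adjusted p = 0.812) at the same dose and were not called. Nor were Rab21, Rab22a and Rab31, endosomal Rabs whose differences at 500 nm and 1000 µg/ml were 0.13, 0.27 and -0.19.

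Recycling returns receptors and membrane from endosomes to the cell surface. Of its 9 Rab genes 1 was called at any of the 6 doses, against 26.9% of all genes. Their effector Rab11fip5, which binds Rab11 on recycling endosomes, gave the largest fall of any member. Rab11fip5 read 5.75, 6.09 and 5.62 at 5 µg/ml, 5.31, 5.53 and 4.96 at 20 µg/ml and 5.33, 5.51 and 4.53 at 50 µg/ml of 10 nm silica, against 6.31, 6.14 and 5.97 in untreated cells. At 20 and 50 µg/ml all arrays lay below the untreated ones. The differences were -0.32 ± 0.2 (SE, adjusted p = 0.847), -0.87 ± 0.2 (SE, adjusted p = 0.00601) and -1.01 ± 0.2 (SE, adjusted p = 0.00123). With 500 nm silica it read 5.54, 5.46 and 5.47 at 250 µg/ml, 5.39, 5.56 and 5.29 at 500 µg/ml and 4.85, 4.89 and 4.6 at 1000 µg/ml. All 9 arrays lay below the untreated ones, although only the highest dose passed the test. The 3 differences were -0.65 ± 0.2 (SE, adjusted p = 0.342), -0.72 ± 0.2 (SE, adjusted p = 0.0599) and -1.36 ± 0.2 (SE, adjusted p = 8.07e-05), the last a 2.56-fold fall. Its calls kept their side of the threshold in every alternative that included it, except 10 nm at 50 µg/ml fitted on the compared groups alone (0.063). The alternative with genes of a mean of at least 6 left Rab11fip5 out, since its mean was 5.43. Its values of 4.53 to 6.31 lay within the range of the markers of other cell types.

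Rab14, which moves membrane between the Golgi and early endosomes and is found on phagosomes, had values of 11.12, 10.87 and 11.31 at 500 nm and 1000 µg/ml, against 11.47, 11.45 and 11.98 in untreated cells. The groups did not overlap, and replicate 3 was the highest array of each. The difference was -0.53 ± 0.16 (SE, adjusted p = 0.0255), and the call ended without untreated replicate 3 (0.133), 500 nm, 1000 µg/ml replicate 1 (0.0589) or 500 nm, 1000 µg/ml replicate 2 (0.108) and under centring (0.0694) and rescaling (0.356). Differences at 10 nm were -0.48 ± 0.16 (SE, adjusted p = 0.0587) at 20 µg/ml and -0.39 ± 0.16 (SE, adjusted p = 0.0803) at 50 µg/ml, not called for this probe set, although both were with the replicate block (adjusted p = 0.00136 and 0.0039). All 6 Rab14 probe sets were negative at these 3 doses, with 3 of the 6 called at 10 nm and 50 µg/ml and 4 of the 6 at 500 nm and 1000 µg/ml, against 18.2% and 14.8% of all probe sets. One of the 4 differed between sizes: 10 nm minus 500 nm silica at the high doses gave 0.82 ± 0.18 (SE, adjusted p = 0.00914).

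The Rab11 forms themselves were not called in the probe sets used: Rab11a differed by -0.26 ± 0.16 (SE, adjusted p = 0.257) and -0.17 ± 0.16 (SE, adjusted p = 0.498) at the high doses of 10 nm and 500 nm silica, and Rab11b by 0.24 ± 0.12 (SE, adjusted p = 0.156) and 0.09 ± 0.12 (SE, adjusted p = 0.643). Another Rab11a probe set was called lower at 10 nm and 50 µg/ml (-0.52). The fast-recycling Rab4a and Rab4b had differences of -0.6 and -0.12 with 10 nm at 50 µg/ml and -0.23 and 0.45 with 500 nm at 1000 µg/ml. Rab12, Rab15, Rab17 and Rab25 were not called either. With the replicate block Rab4a (adjusted p = 0.0142) and Rab25 (0.0178) were called at 10 nm and 50 µg/ml. Over the 9 genes the differences ran from -0.60 to 0.40 at the first dose and from -0.53 to 0.45 at the second.

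The 11 genes of exocytosis and secretory granules included 1 called at any of the 6 doses, against 26.9% of all genes. Rab8b, which carries membrane from the Golgi to the cell surface, read 9.52, 9.55 and 9.6 at 10 nm and 50 µg/ml, against 9.86, 9.8 and 10.22 in untreated cells. All treated arrays lay below the untreated ones, and the difference was -0.4 ± 0.12 (SE, adjusted p = 0.0283). That call ended without untreated replicate 3 (0.113), 10 nm, 50 µg/ml replicate 1 (0.0558) or 10 nm, 50 µg/ml replicate 2 (0.0685), without all replicate 3 arrays (0.164), with the mean of its probe sets (0.307), and under centring (0.0894), quantile normalization (0.119) and rescaling (0.463). Its close relatives Rab8a and Rab10, which act in the same transport, differed by -0.16 ± 0.31 (SE, adjusted p = 0.731) and -0.06 ± 0.1 (SE, adjusted p = 0.682). Rab3a, Rab3b, Rab3c, Rab3d, Rab13, Rab27a, Rab27b and Rab37, most of them Rabs of regulated secretion, were called at no dose in the probe sets used. Further probe sets of Rab10 (-0.41), Rab3d (-0.72) and Rab27b (0.36) passed at 10 nm and 50 µg/ml. That of Rab10 also passed at 500 nm and 1000 µg/ml (-0.46). With the replicate block Rab13 was called at 10 nm and 20 and 50 µg/ml (0.31, adjusted p = 0.0428, and 0.28, adjusted p = 0.0444), Rab27a at 50 µg/ml (-0.59, 0.00886) and Rab8b at 20 µg/ml (-0.33, 0.044). In this group differences ran from -0.59 to 0.28 at 10 nm and 50 µg/ml, and from -0.19 to 0.30 at 500 nm and 1000 µg/ml.

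Of 11 genes of traffic between endoplasmic reticulum and Golgi, 1 passed against untreated cells at any of the 6 doses, against 26.9% of all genes. Rab43, a Golgi Rab, read 7.02, 7.12 and 7.25 at 10 nm and 20 µg/ml, against 6.76, 6.79 and 6.87 in untreated cells. The groups did not overlap, and the difference was 0.32 ± 0.1 (SE, adjusted p = 0.0484), but leaving out any of the 6 arrays ended the call (adjusted p 0.055 to 0.196), as did leaving out all replicate 3 arrays (0.136). Rab1a and Rab2a, which carry early secretory traffic, differed by 0.02 ± 0.14 (SE, adjusted p = 0.917) and -0.0 ± 0.08 (SE, adjusted p = 0.996) at 10 nm and 50 µg/ml, and by 0.16 ± 0.14 (SE, adjusted p = 0.468) and 0.06 ± 0.08 (SE, adjusted p = 0.641) at 500 nm and 1000 µg/ml. Rab6a, of retrograde Golgi traffic, differed by -0.01 ± 0.14 (SE, adjusted p = 0.97) and 0.07 ± 0.14 (SE, adjusted p = 0.759). Further probe sets of Rab2a (-0.59 and -0.48) and Rab6a (-0.32) were called lower at 10 nm and 50 µg/ml. Rab1b, Rab2b, Rab6b, Rab18, Rab30, Rab33a and Rab33b were not called against untreated cells. With the replicate block Rab33b (-0.41, adjusted p = 0.0311) and Rab43 (0.29, adjusted p = 0.0132) were called at 10 nm and 50 µg/ml.

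Among the 4 genes of cilia and other roles, Rab40c, part of a ubiquitin ligase, fell at the middle 10 nm dose. It read 8.05, 8.24 and 8.33 at 10 nm and 20 µg/ml, against 8.75, 8.59 and 8.71 in untreated cells, with no overlap. The difference was -0.48 ± 0.1 (SE, adjusted p = 0.00331), against -0.24 ± 0.1 (SE, adjusted p = 0.103) at 50 µg/ml. Rescaling (0.0654) and the mean of its probe sets (0.666) ended the call. Rab23, a brake on Hedgehog signalling, read 7.06, 6.86 and 6.57 at 10 nm and 50 µg/ml and 6.65, 7.04 and 6.53 at 500 nm and 1000 µg/ml, against 7.3, 7.18 and 7.54 in untreated cells. Both treated groups lay below the untreated arrays, with differences of -0.51 ± 0.16 (SE, adjusted p = 0.027) and -0.61 ± 0.16 (SE, adjusted p = 0.0115). The first call ended without untreated replicate 1 (0.0531), untreated replicate 3 (0.0888), 10 nm, 50 µg/ml replicate 2 (0.0552) or 10 nm, 50 µg/ml replicate 3 (0.14) and under centring (0.0608), quantile normalization (0.0988) and rescaling (0.0714), and the second without untreated replicate 3 (0.0594) or 500 nm, 1000 µg/ml replicate 3 (0.0676). Leaving out all replicate 3 arrays ended both (0.236 and 0.121), as did the mean of its probe sets (0.259 and 0.552). At 10 nm and 20 µg/ml Rab23 was called with the replicate block alone (-0.47 ± 0.16 (SE, adjusted p = 0.0634) without it, 0.0272 with it).

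Rab28, linked to cilia and photoreceptors, read 9.11, 8.99 and 9.4 at 10 nm and 50 µg/ml, against 9.45, 9.5 and 9.69 in untreated cells. The highest treated array lay just below the lowest untreated one, and the difference was -0.38 ± 0.12 (SE, adjusted p = 0.0382). Its call ended without untreated replicate 2 (0.0674), untreated replicate 3 (0.107), 10 nm, 50 µg/ml replicate 1 (0.0771) or 10 nm, 50 µg/ml replicate 2 (0.148) and under centring (0.119), quantile normalization (0.224) and rescaling (0.524). Rab40b differed by 0.22 ± 0.11 (SE, adjusted p = 0.164) at that dose.

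The opposite-strand transcript Rab26os fell with both sizes. It read 6.24, 6.3 and 6.45 at 20 µg/ml and 6.48, 6.42 and 6.45 at 50 µg/ml of 10 nm silica and 6.38, 6.11 and 6.53 at 1000 µg/ml of 500 nm silica, against 6.91, 7.04 and 7.21 in untreated cells. All 9 arrays lay below the untreated ones. The differences were -0.72 ± 0.14 (SE, adjusted p = 0.00133), -0.6 ± 0.14 (SE, adjusted p = 0.00424) and -0.71 ± 0.14 (SE, adjusted p = 0.00113). At 250 and 500 µg/ml of 500 nm silica they were -0.58 ± 0.14 (SE, adjusted p = 0.0845) and -0.51 ± 0.14 (SE, adjusted p = 0.0511), also without overlap. Rab26 itself is not among the genes analysed here.

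Of the other genes named after a Rab, Rab5if, a membrane protein named for an interaction with Rab5, read 11.39, 11.47 and 11.46 at 10 nm and 50 µg/ml, against 11.72, 11.67 and 11.67 in untreated cells. Its difference was -0.25 ± 0.08 (SE, adjusted p = 0.0435), the smallest of any called member at that dose, with no overlap of the arrays. Leaving out any of the 6 arrays ended the call (adjusted p 0.0564 to 0.119), as did leaving out all replicate 3 arrays (0.1), centring (0.212) and quantile normalization (0.0603), and rescaling turned the difference to 0.0803. Rab3ip and Rab3il1, exchange factors for Rab8, differed by -0.13 ± 0.1 (SE, adjusted p = 0.357) and -0.36 ± 0.26 (SE, adjusted p = 0.331) at that dose. Another Rab3il1 probe set was called lower there (-1.07). Rab3gap2, a subunit of the complex that turns off Rab3, differed by 0.19 ± 0.22 (SE, adjusted p = 0.55).

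Particle size was compared directly at 3 pairs of doses. With equal nominal area at the low doses (10 nm at 5 against 500 nm at 250 µg/ml), limma called 0 of 56 members, against 0.0888% of all genes. There the count at an unadjusted p under 0.05 was 4 members, against 3.8% of all genes. The largest member difference was that of Rab26os, which read 7.39, 7.16 and 6.94 with 10 nm and 6.68, 6.22 and 6.51 with 500 nm silica, without overlap, a difference of 0.69 ± 0.14 (SE, adjusted p = 0.0744). Rab7b read 9.95, 9.88 and 10.00 with 10 nm and 9.96, 9.75 and 9.9 with 500 nm silica, overlapping ranges and a difference of 0.08 ± 0.12 (SE, adjusted p = 1.0) with a 95% interval of -0.18 to 0.34. For Rab20 the difference was -0.07 ± 0.32 (SE, adjusted p = 1.0) with an interval of -0.73 to 0.6.

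At equal nominal area at the higher level (10 nm at 20 against 500 nm at 1000 µg/ml), 2 members were called, 1 higher and 1 lower with 10 nm silica, against 2.85% of all genes (1.81% higher, 1.04% lower). Rab3gap2 read 6.28, 6.24 and 6.93 with 10 nm and 5.61, 5.68 and 5.63 with 500 nm silica. The groups did not overlap and the difference was 0.84 ± 0.22 (SE, adjusted p = 0.0365), while neither dose was called against untreated cells (0.35 ± 0.22 (SE, adjusted p = 0.375) and -0.5 ± 0.22 (SE, adjusted p = 0.13)). Its size call ended without 10 nm, 20 µg/ml replicate 1 (0.056), 10 nm, 20 µg/ml replicate 3 (0.215), 500 nm, 1000 µg/ml replicate 1 (0.125), 500 nm, 1000 µg/ml replicate 2 (0.0821) or 500 nm, 1000 µg/ml replicate 3 (0.104), and without all replicate 3 arrays (0.0807). Rab9 read 8.35, 8.47 and 8.41 with 10 nm and 8.92, 8.94 and 8.74 with 500 nm silica, again without overlap, a difference of -0.45 ± 0.1 (SE, adjusted p = 0.0166). Leaving out 10 nm, 20 µg/ml replicate 1 (0.0813), 10 nm, 20 µg/ml replicate 3 (0.0599), 500 nm, 1000 µg/ml replicate 1 (0.0784) or 500 nm, 1000 µg/ml replicate 2 (0.0728) ended that call. Differences of Rab20 and Rab11fip5 at this pair were -0.59 ± 0.32 (SE, adjusted p = 0.496) and 0.49 ± 0.2 (SE, adjusted p = 0.284), with intervals of -1.25 to 0.07 and 0.07 to 0.9.

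At the high doses (10 nm at 50 against 500 nm at 1000 µg/ml), 4 members were called, all lower with 10 nm silica, against 7.52% of all genes (4.15% lower). With the replicate number as a block, 10 were called, 1 higher and 9 lower (16.7% of all genes). The 6 added were Rab3gap2 (0.68, adjusted p = 0.00803), higher with 10 nm silica, and Rab29 (-0.41, 0.00724), Rab34 (-0.34, 0.0173), Rab5c (-0.5, 0.0051), Rab4b (-0.57, 0.0157) and Rab27a (-0.5, 0.0385), lower. The fit on the compared groups alone ended all 6 size calls of members (adjusted p 0.0906 to 0.274), with 0.783% of all genes called at equal higher area and 1.32% at the high doses. Rab20 read 6.53, 6.42 and 5.31 with 10 nm and 7.57, 7.63 and 6.92 with 500 nm silica. No arrays overlapped, and the difference was -1.29 ± 0.32 (SE, adjusted p = 0.0156), a call that ended without 10 nm, 50 µg/ml replicate 3 (0.0953), 500 nm, 1000 µg/ml replicate 1 (0.0732) or 500 nm, 1000 µg/ml replicate 2 (0.0775). Rab7b read 9.34, 9.21 and 9.4 with 10 nm and 9.98, 9.73 and 10.15 with 500 nm silica, a difference of -0.64 ± 0.12 (SE, adjusted p = 0.00287) without overlap. The other Rab7b probe set gave -0.13 ± 0.15 (SE, adjusted p = 0.702) for the same comparison, so this size difference rests on 1 of the 2 probe sets.

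Rab9 was also lower with 10 nm silica at the high doses, with 8.41, 8.26 and 8.45 against 8.92, 8.94 and 8.74 for 500 nm silica. The ranges lay apart, and the difference was -0.49 ± 0.1 (SE, adjusted p = 0.00496), which no left-out array ended and the fit on the compared groups alone did (0.136). Rab18, which acts at the endoplasmic reticulum and lipid droplets, read 9.53, 9.44 and 9.28 with 10 nm and 9.92, 10.00 and 9.61 with 500 nm silica. Here too the arrays did not overlap, and the difference was -0.43 ± 0.13 (SE, adjusted p = 0.0495). That call ended without 10 nm, 50 µg/ml replicate 1 (0.050045), 10 nm, 50 µg/ml replicate 2 (0.0985), 10 nm, 50 µg/ml replicate 3 (0.188), 500 nm, 1000 µg/ml replicate 1 (0.179) or 500 nm, 1000 µg/ml replicate 2 (0.212), and the mean of its probe sets gave 0.46. For Rab29 and Rab32 the size differences were -0.41 ± 0.13 (SE, adjusted p = 0.0659) and -0.21 ± 0.11 (SE, adjusted p = 0.29). Without the block the falls with 10 nm silica were thus not shown to differ from the values with 500 nm silica. With the block Rab29 was called between sizes and Rab32 was not.

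**Figure D3:**
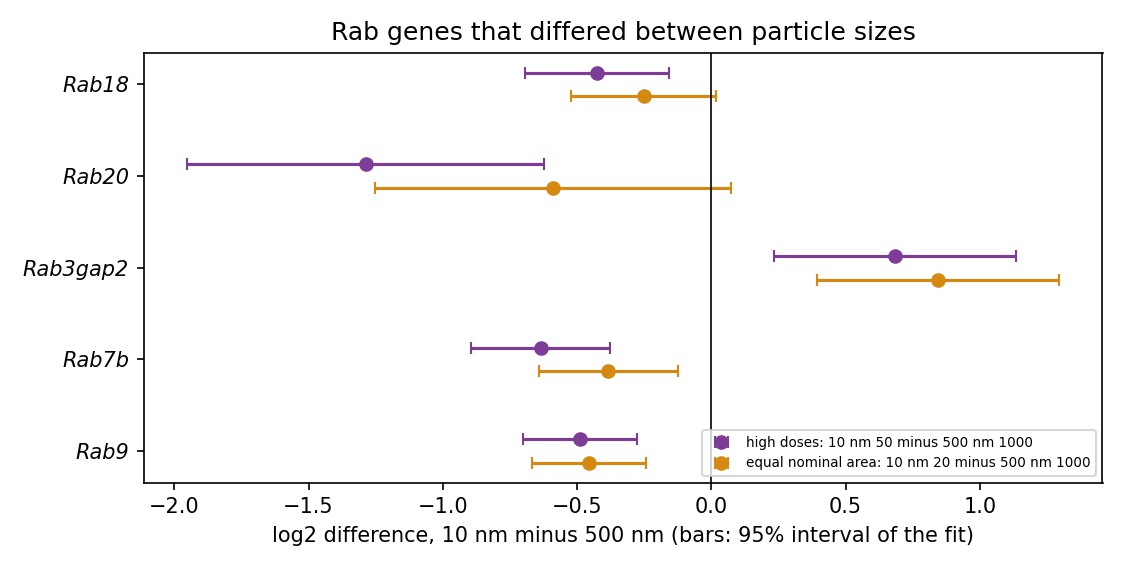
Difference of 10 nm minus 500 nm silica (log2, with 95% interval, 3 arrays a group) of the 5 members called between sizes, at the high doses and at equal higher nominal area. At the high doses Rab20 (-1.29), Rab7b (-0.64), Rab9 (-0.49) and Rab18 (-0.43) lie below 0.

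Genes with several probe sets were followed probe set by probe set, with p-values adjusted over 20380 probe sets. Rab22a, of early endosomes, had 3. One of those not used for the gene read 6.4, 6.36 and 6.65 at 10 nm and 50 µg/ml and 5.02, 5.5 and 5.44 at 500 nm and 1000 µg/ml, against 5.25, 6.16 and 6.35 in untreated cells. The 2 treated groups lay apart, with a size difference of 1.15 ± 0.24 (SE, adjusted p = 0.005), where 6.99% of all probe sets were called, while the probe set used gave -0.05 ± 0.13 (SE, adjusted p = 0.879) and the last 0.69 ± 0.23 (SE, adjusted p = 0.0869). For Rab3il1 1 of 5 probe sets read 3.75, 3.73 and 3.99 with 10 nm at 50 µg/ml and 3.85, 3.64 and 3.46 with 500 nm at 1000 µg/ml, against 4.86, 4.84 and 4.97 in untreated cells. Both treated groups lay well below the untreated arrays, with differences of -1.07 ± 0.16 (SE, adjusted p = 0.000107) and -1.24 ± 0.16 (SE, adjusted p = 2.27e-05), and the other 4 lay between -0.36 and 0.06 and between -0.16 and 0.09 at these doses.

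**Figure D4:**
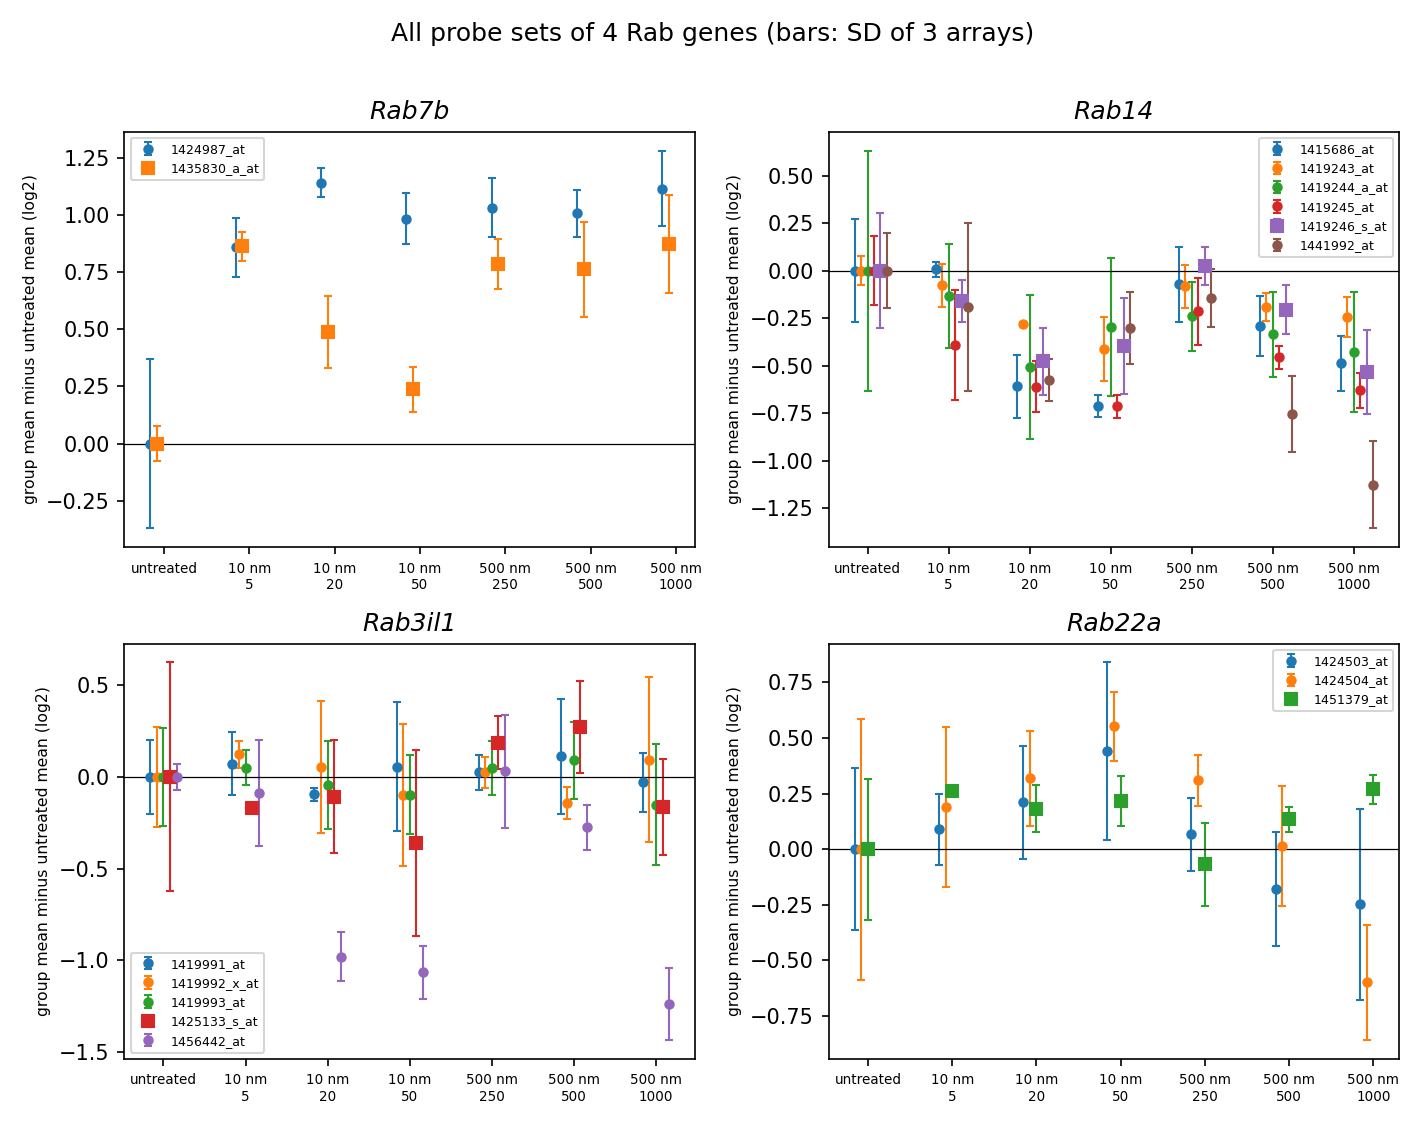
Log2 difference from untreated cells at the 6 doses (group means, bars the SD of 3 arrays) of every probe set of 4 members; squares mark the probe set used for the gene. Both Rab7b probe sets are above 0 at every dose, and Rab22a probe sets part at 500 nm and 1000 µg/ml.

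The machinery that loads, unloads, anchors and reads Rab proteins was followed in a list of 126 genes, of which 81 were measured. At 10 nm and 50 µg/ml, 12 of 81 passed, 2 higher and 10 lower, against 20.2% of all genes, and at 500 nm and 1000 µg/ml 15 passed, 5 higher and 10 lower, against 15.3%. With the replicate number as a block the first count was 25, 5 higher and 20 lower, against 36.7% of all genes. Median differences were -0.11 and -0.06, against 0.04 and 0.07 over all genes.

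Rin2, an exchange factor for Rab5, read 6.49, 6.57 and 6.1 at 10 nm and 50 µg/ml and 6.06, 6.04 and 6.19 at 500 nm and 1000 µg/ml, against 7.93, 8.17 and 8.16 in untreated cells. Both groups lay far below the untreated arrays, with differences of -1.7 ± 0.13 (SE, adjusted p = 2.44e-08) and -1.99 ± 0.13 (SE, adjusted p = 2.66e-09). Fyco1, the Rab7 effector that links late endosomes and autophagosomes to kinesin, differed by -1.18 ± 0.17 (SE, adjusted p = 4.97e-05) and -1.25 ± 0.17 (SE, adjusted p = 2.97e-05). Tbc1d14, a TBC-domain protein that binds Rab11 and restrains autophagy, differed by -0.9 ± 0.11 (SE, adjusted p = 1.11e-05) and -0.94 ± 0.11 (SE, adjusted p = 6.72e-06). Each of these falls kept its call in every alternative that included the gene. The alternative with genes of a mean of at least 6 left Fyco1 out, since all Fyco1 values lay below 6. The Fyco1 values lay within the range of the markers of other cell types.

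Dennd2d, of the DENN family of exchange factors, fell at 10 nm and 50 µg/ml, with a difference of -0.7 ± 0.13 (SE, adjusted p = 0.00089), a call that ended in a fit on the compared groups alone (0.0798). Rilpl2, an effector of Rabs at the cilium, rose instead. It read 10.46, 10.64 and 10.49 at 500 nm and 1000 µg/ml, against 9.84, 9.9 and 9.42 in untreated cells, with no overlap and a difference of 0.81 ± 0.11 (SE, adjusted p = 4.88e-05). With 10 nm silica at 50 µg/ml it differed by 0.03 ± 0.11 (SE, adjusted p = 0.857), and the size difference of 10 nm minus 500 nm silica was -0.78 ± 0.11 (SE, adjusted p = 0.000209). In that size comparison 5 of the 81 genes were called, 2 higher and 3 lower, against 7.52% of all genes, and 14 with the replicate block, 5 higher and 9 lower, against 16.7%.

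**Figure D5:**
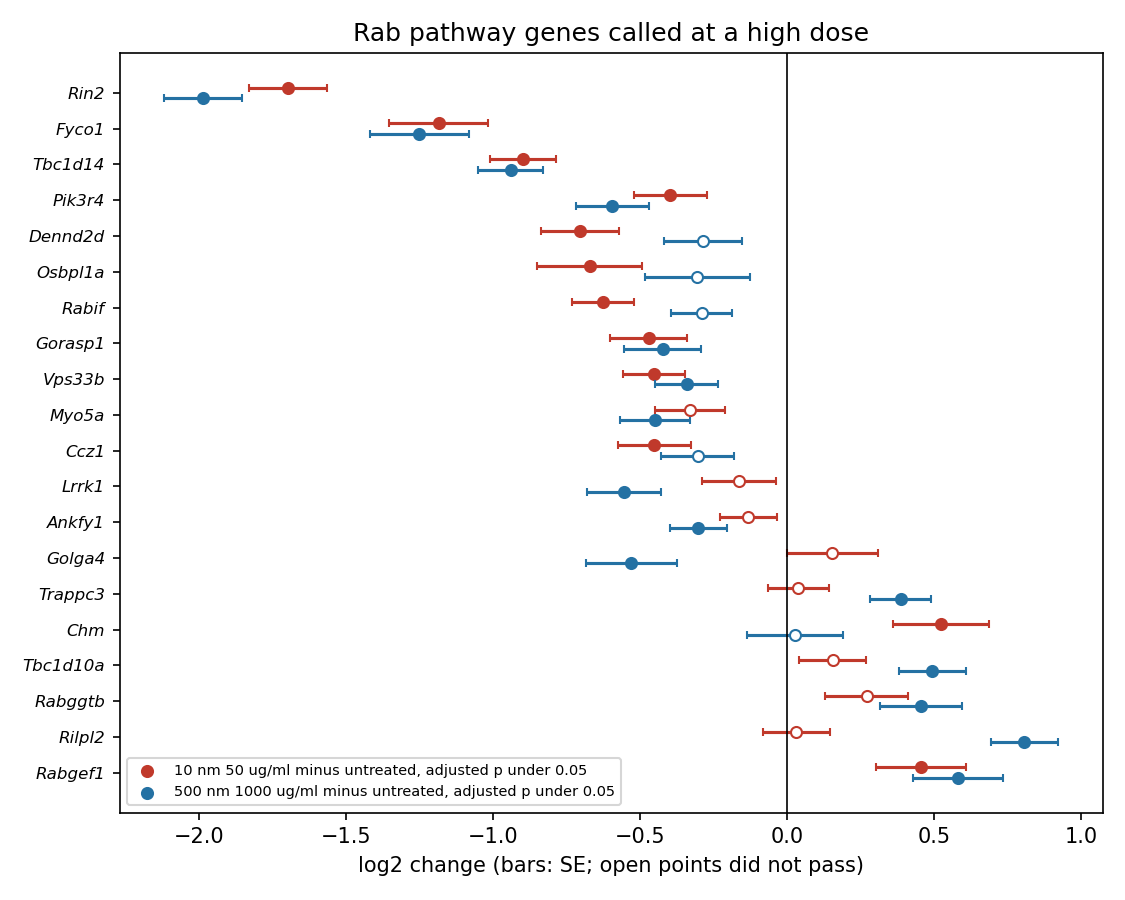
Log2 difference from untreated cells with its SE (3 arrays a group; open points did not pass) at the high dose of 10 nm and of 500 nm silica, for the genes of the Rab machinery called at either. Rin2, Fyco1 and Tbc1d14 are lower with both sizes and Rilpl2 is higher with 500 nm silica.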

How the data were processed

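RNA of RAW 264.7 cells (7 groups, 3 arrays each) was labelled by an oligo-dT primed reaction and hybridised to an Affymetrix mouse array, per the labels' protocols. The authors deposited 1 value per probe set on a log10 scale, made with RMA per the submitters' processing notes, with no version in the sources used here. That method commonly subtracts background and equalises the arrays' distributions, which can remove a shift shared by most genes and compress changes of dim probe sets. The log base was read from the deposited values, whose maximum of 4.34 is 22019 intensity units in base 10 and 20.3 in base 2, so every fold rests on that reading. Values were multiplied by 3.32 to give log2. Of 22690 probe sets, 20380 named 1 gene in the platform annotation, which gave 12393 genes, and all 56 members matched the GRCm38.p6 table by gene ID. Precision is set by the number of arrays, since intensities carry no read depth.

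The comparisons used limma 3.58.1 (R 4.3.3), with lmFit and eBayes on a model of the 7 groups over all 21 arrays (14 residual and 4.80 prior degrees of freedom, median residual SD 0.184). Tests were two-sided, with Benjamini-Hochberg adjustment over all genes and calls at an adjusted p under 0.05. The fit was tested on simulated data with independent errors for each array, so that test did not cover same-numbered arrays that deviate together. Plots were made in Python 3.11.15 with matplotlib 3.10.9. The members and lists were chosen with earlier results of these data known. Among called members whose groups did not overlap, the 8 with the largest change at each high dose and the 4 largest in each other comparison were named, with the 4 largest of the Rab machinery list at each high dose. Rab5c, the other called members, the 2 comparisons between doses of one size and the values of further probe sets and uncalled genes were added after their values were seen.

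Same-numbered arrays of 2 groups deviated together in part: the correlation of their deviations from the group means was -0.24 to 0.72, over 0.1 in 26 of 33 pairs. All 3 pairs exceeded 0.1 for 10 nm at 20 and at 50 µg/ml against untreated cells. They also did for the 2 high doses and for 500 nm at 1000 against 250 µg/ml. The blocked counts and most of the changed calls stand beside the first 3 of these comparisons. Alternatives were the replicate block, 3 array scalings, array weights, the mean of all probe sets, genes with a mean of at least 6, a fit on the compared groups alone, leaving out each array, and, chosen after seeing the data, leaving out replicate 3 everywhere.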

Additional observations from a re-analysis of the deposited data

Results flagged for a closer look

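Groups given different particle sizes differed, by the test of the difference itself, for 5 members, in 6 results. The fit on the compared groups alone ended all 6 calls. At equal nominal area (10 nm at 20 minus 500 nm at 1000 µg/ml) these were Rab3gap2 (0.84) and Rab9 (-0.45). At the high doses (10 nm at 50 minus 500 nm at 1000 µg/ml) they were Rab18 (-0.43), Rab20 (-1.29), Rab7b (-0.64) and Rab9 (-0.49). These doses are matched neither by mass nor by area, so size and dose cannot be told apart there. The other Rab7b probe set was not called in that comparison. Because a size difference and the difference of 2 effects against the same untreated arrays are one contrast, these tests need no further interaction term.

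Signals also appeared in probe sets that were not used for their gene, where the gene's own probe set was not called and the further one passed over 20380 probe sets (18.2% of them at 10 nm and 50 µg/ml and 14.8% at 500 nm and 1000 µg/ml). At 10 nm and 50 µg/ml, Rab14 had 3 such probe sets with differences of -0.71, -0.41 and -0.71, and Rab2a had 2, with -0.59 and -0.48 against -0.0 in the one used. Single probe sets of Rab3il1 (-1.07), Rab3d (-0.72), Rab11a (-0.52), Rab10 (-0.41) and Rab6a (-0.32) were lower. Those of Rab7b (0.98) and Rab27b (0.36) were higher. At 500 nm and 1000 µg/ml, Rab3il1 (-1.24) and Rab10 (-0.46) were lower again in the same probe sets.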

How the results depend on the processing

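Counts of called genes are given in the order 10 nm at 5, 20 and 50 µg/ml, then 500 nm at 250, 500 and 1000 µg/ml against untreated cells, then 10 nm against 500 nm silica at the low doses, at equal higher area and at the high doses, then the F test, then the Rab machinery list at 10 nm and 50 µg/ml, at 500 nm and 1000 µg/ml and between the high doses. They stand here without the share of all genes called under the same setting, so they set nothing apart about the family. The replicate block gave 2, 14, 20, 4, 4, 12, 1, 5, 10, 20, 25, 25 and 14. It kept all 48 named changes called and added 34 calls of members over the 9 comparisons, among them Rab26os between the low doses (0.69, adjusted p = 0.0156), where same-numbered arrays did not all deviate together. Array weights, where limma reported that its tolerance was not reached, gave 8, 16, 29, 4, 13, 20, 2, 13, 23, 37, 36, 27 and 31. A fit on the compared groups alone, with fewer arrays to estimate the spread, gave 1, 3, 2, 0, 2, 4, 0, 0, 0, 4, 6 and 2 (no F test was run) and ended 27 of the 48 named changes. With genes of a mean of at least 6 alone the count was 2 for 500 nm at 250 µg/ml, 1 for the low doses, 8 for the high doses and 10 for the machinery between the high doses. With quantile normalization the count was 7 for 10 nm at 50 µg/ml. With rescaling the count was 13 for 500 nm at 1000 µg/ml. Without replicate 3 in any group the count was 2 for 500 nm at 250 µg/ml and 9 for the machinery between the high doses. Leaving out 1 array gave 1 to 1, 6 to 9, 7 to 11, 1 to 1, 1 to 2, 5 to 7, 0 to 1, 0 to 2, 2 to 5, 8 to 12, 8 to 13, 9 to 13 and 1 to 5 for the same 13 counts. Among named changes, 69 such fits ended a call, 219 did not and none turned a sign. Rab5if at 10 nm and 50 µg/ml was 0.0803 after rescaling, against -0.25 without it. Without replicate 3 in any group 12 of the 48 lost their call. Centring, quantile normalization, rescaling and the mean of probe sets ended 9, 11, 11 and 6. For all of these the cause was not tested. The precision is limited by 3 arrays a group.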
